A study of Mus musculus with 12 samples.

Results

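The cardiac myosin heavy chains are the motor proteins of the thick filament in heart muscle, and 3 genes of this kind were followed here, Myh6, Myh7 and Myh7b. They were found as the probes whose gene name on the array equals one of these symbols, which gave 4 of the 55681 probes on the array, 2 for Myh6 and 1 each for Myh7 and Myh7b, and all 4 passed the filter on signal over background that 24593 probes passed. RNA came from the left ventricular wall with the apex, without the interventricular septum, of 12 mice aged 6 months, with 1 mouse on each one-colour Agilent array. The Nkx2-5ΔTrbE10 hearts (TrbE10, n = 4, labelled Nkx2-5Δtrab) and the Nkx2-5ΔTrbE14 hearts (TrbE14, n = 4, labelled Nkx2-5Δcomp) carried Floxed-Nkx2-5-ΔNeo alleles and a Cx40-creERT2 allele, and tamoxifen was given to the pregnant mothers on E10.5 and E11.5 (TrbE10) or on E13.5 and E14.5 (TrbE14), before delivery by caesarian section and fostering by CD1 females. Control hearts (n = 4) were Nkx2-5-ΔNeo fl/fl with Cx40+/+, so that the floxed alleles were present in every group and the Cre allele was absent from control only. The methods of the study call the controls littermates of the mutants, whereas their labels say that they were not injected. Cre was driven from the Cx40 locus and therefore acted in the cells that express Cx40 at the time of tamoxifen, such as the trabecular myocardium, while the wall sampled at 6 months also holds cells in which the gene was never deleted. The Cre allele, the tamoxifen and the loss of Nkx2-5 cannot be told apart in these groups.

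In rodents Myh6 encodes the fast α heavy chain, which dominates in the adult ventricle, and Myh7 encodes the slow β heavy chain, which dominates in the fetal ventricle. The balance between them is set by thyroid hormone, which favours Myh6 and represses Myh7, and it shifts toward Myh7 in the overloaded or failing ventricle. Myh7b is an older and more distant relative, whose transcript in mammalian heart is largely spliced in a form that does not yield full-length protein. Each of the genes carries a microRNA in an intron, and the antisense RNA Mhrt (Myheart), which binds the chromatin remodeller Brg1, is transcribed from the DNA between Myh6 and Myh7 into Myh7.

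In RefSeq annotation of the GRCm38.p6 build, Myh6 lies on the minus strand of chromosome 14 at chr14:54941921-54968017 and Myh7 lies 2666 bases upstream of it at chr14:54970684-54994626, also on the minus strand. Mhrt occupies chr14:54968787-54974349 on the plus strand, and 3666 of its 5563 bases overlap Myh7. Myh7b lies apart from them on the plus strand of chromosome 2 at chr2:155611243-155634307. The 4 probes are 60 bases long and their positions are given on the mm9 build, as in the array's own annotation, which is not the build of the gene positions above. The Myh7 probe (chr14:55589581-55589640, starting at base 5938 of the transcript) and the brighter Myh6 probe (chr14:55560774-55560833, base 6003) both begin in the last codons and run into the 3′ UTR. The dimmer Myh6 probe (chr14:55584132-55584191, base 308) lies in the coding sequence near the 5′ end, and the Myh7b probe (chr2:155459122-155459181, base 5734) lies in the coding sequence. They are shown because each value below is the brightness of 1 of these oligonucleotides. Only the first 30 bases of the 3′ probes are printed, and capitals mark the stop codon.
Myh7 probe, first 30 bases: atgaggagTAGctcttgtgctacccagctc
Myh6 3′ probe, first 30 bases: gcacgacgaggaaTAAcctctccagcagac
Myh6 5′ probe: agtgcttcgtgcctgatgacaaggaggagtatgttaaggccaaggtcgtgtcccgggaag
Myh7b probe: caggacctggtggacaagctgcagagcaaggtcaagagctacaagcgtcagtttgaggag

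The 3 intronic microRNAs are shown because they are made from the transcripts followed here and form 1 family. Their mature sequences from RefSeq (GRCm38.p6) are given with the seed, bases 2 to 8, in capitals. Mir208a lies inside Myh6, Mir208b inside Myh7 and Mir499 inside Myh7b.
miR-208a-3p: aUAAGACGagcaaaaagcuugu
miR-208b-3p: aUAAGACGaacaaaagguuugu
miR-499-5p: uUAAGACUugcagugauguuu
The 2 miR-208 microRNAs have the same seed and share 19 of 22 bases in register. The seed of miR-499-5p is the same as theirs in 6 of 7 bases. No probe on the array carries the name or accession of any of these microRNA genes (0 probes each), so their levels were not analysed here.

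The 250 bases before the transcription start of Myh7 and Myh6 are shown because these neighbours gave different results. Both are from RefSeq on GRCm38.p6, minus strand, at chr14:54994627-54994876 for Myh7 and chr14:54966608-54966857 for Myh6. RefSeq has a second Myh7 start 77 bases downstream, and the Myh6 start used here lies inside the gene body given above, which extends further upstream. Both strands were searched, and matches are in capitals. The MCAT element, which TEAD factors bind, was searched as CATTCC. The core of an Nkx2-5 binding element was searched as AAGTG. The letters for GATA factors were AGATAA. A thyroid hormone response half-site was searched as AGGTCA. The TATA box was searched as TATAAA.
Myh7, 250 bases before the start: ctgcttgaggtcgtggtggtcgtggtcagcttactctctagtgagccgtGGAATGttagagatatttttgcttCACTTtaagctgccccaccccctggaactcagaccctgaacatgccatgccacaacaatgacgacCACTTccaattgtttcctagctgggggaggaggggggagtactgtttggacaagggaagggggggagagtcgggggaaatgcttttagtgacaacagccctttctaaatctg
Myh6, 250 bases before the start: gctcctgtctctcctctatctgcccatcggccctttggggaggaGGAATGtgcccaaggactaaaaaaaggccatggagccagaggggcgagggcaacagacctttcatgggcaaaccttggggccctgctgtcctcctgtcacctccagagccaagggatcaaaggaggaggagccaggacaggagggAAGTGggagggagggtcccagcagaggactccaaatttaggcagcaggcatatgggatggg
Myh7 held the MCAT letters on the opposite strand at bases 201 to 196 before the start, and the Nkx2-5 core on the opposite strand at bases 177 to 173 and 112 to 108. Myh6 held the MCAT letters on the opposite strand at bases 206 to 201 and the Nkx2-5 core on its own strand at bases 61 to 57. No matches overlapped each other, and the exact letters of the other 3 motifs were not in either window. Variants of the motifs were not searched, so a thyroid hormone element or other site with different letters would be missed. The window of the second Myh7 start held no MCAT letters and 1 Nkx2-5 core, at bases 189 to 185. That core is the one at bases 112 to 108 before the first start, and the MCAT letters of the first window lie upstream of the second. Among 32851 windows of 250 bases before RefSeq starts, 12.6% held the MCAT letters and 40.7% the Nkx2-5 core, against 10.0% for GATA, 14.0% for the thyroid half-site and 12.4% for the TATA box. A match describes the letters only, and no binding was measured.

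The arrays were of even quality, with between 22888 and 26155 probes well above background per array and 0 saturated spots. Control and TrbE14 were hybridized on the same slide and are compared within it, whereas TrbE10 had a slide of its own, whose effect cannot be told apart from that of the group. Y-linked genes gave signal in 1 control, 2 TrbE10 and 3 TrbE14 hearts. Levels are given as log2 signal after quantile normalization, in which a difference of 1 is a doubling. The groups were compared by limma in 1 model of 24593 probes, and a probe was called when its Benjamini-Hochberg adjusted p was under 0.05. With 4 hearts against 4, the smallest p of an exact two-sided permutation test is 0.0286. Nkx2-5, the deleted gene, had a log2 signal of 11.95, 12.23, 11.93 and 11.89 in control hearts, 11.27, 11.67, 11.21 and 11.22 in TrbE10 hearts and 11.12, 11.57, 11.32 and 11.62 in TrbE14 hearts. Every mutant heart was below every control heart. Of all probes, 10.1% in TrbE10 and 9.43% in TrbE14 likewise had no overlap with control, in either direction. The log2 difference from control was -0.66 (SE 0.143, adjusted p = 0.0459 by limma) in TrbE10 and -0.59 (SE 0.143, adjusted p = 0.106) in TrbE14 hearts. The TrbE10 call was lost under 12 of 22 alternatives, namely without a filter on dim probes, in a fit of 2 groups only and without any 1 array other than TrbE14 replicate 1 and TrbE10 replicate 2 (adjusted p between 0.0521 and 0.132). Whether the probe lies in the deleted part of the gene is not given in the sources used here.

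Myh7, the β heavy chain, was the member that changed. Its log2 signal in the 4 control hearts was 13.68, 13.30, 13.96 and 13.73. In TrbE10 hearts it was 16.67, 15.88, 17.12 and 17.21. In TrbE14 hearts it was 15.88, 15.39, 17.06 and 16.17. Every mutant heart was above every control heart, as groups without overlap were for 10.1% (TrbE10) and 9.43% (TrbE14) of all probes in either direction. The lowest mutant heart still lay above the highest control heart by more than the whole range of the control hearts. Replicate 2 was the lowest heart in each group. On the scanner's own linear scale the Myh7 signal was 11770 to 16555 in control, 58464 to 136720 in TrbE10 and 47703 to 129530 in TrbE14 hearts.

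Myh7 rose in both mutants. In TrbE10 hearts the log2 difference from control was 3.05 (SE 0.36, 95% confidence interval 2.26 to 3.84), an 8.28-fold higher signal (4.79 to 14.3), with an adjusted p of 0.00217 by limma. In TrbE14 hearts it was 2.46 (SE 0.36, 1.67 to 3.25), a 5.49-fold higher signal (3.17 to 9.5), with an adjusted p of 0.0107. Among all probes 1.69% were called in TrbE10 and 0.602% in TrbE14 hearts, and by the size of the log2 difference Myh7 was number 15 and number 40 of the 24593 probes. The exact permutation p was 0.0286 in each comparison (n = 4 and 4), the smallest possible. The call stood in both mutants under all alternatives tried, with log2 differences between 2.89 and 3.33 in TrbE10 and between 2.15 and 2.70 in TrbE14 hearts.

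**Figure D1:**
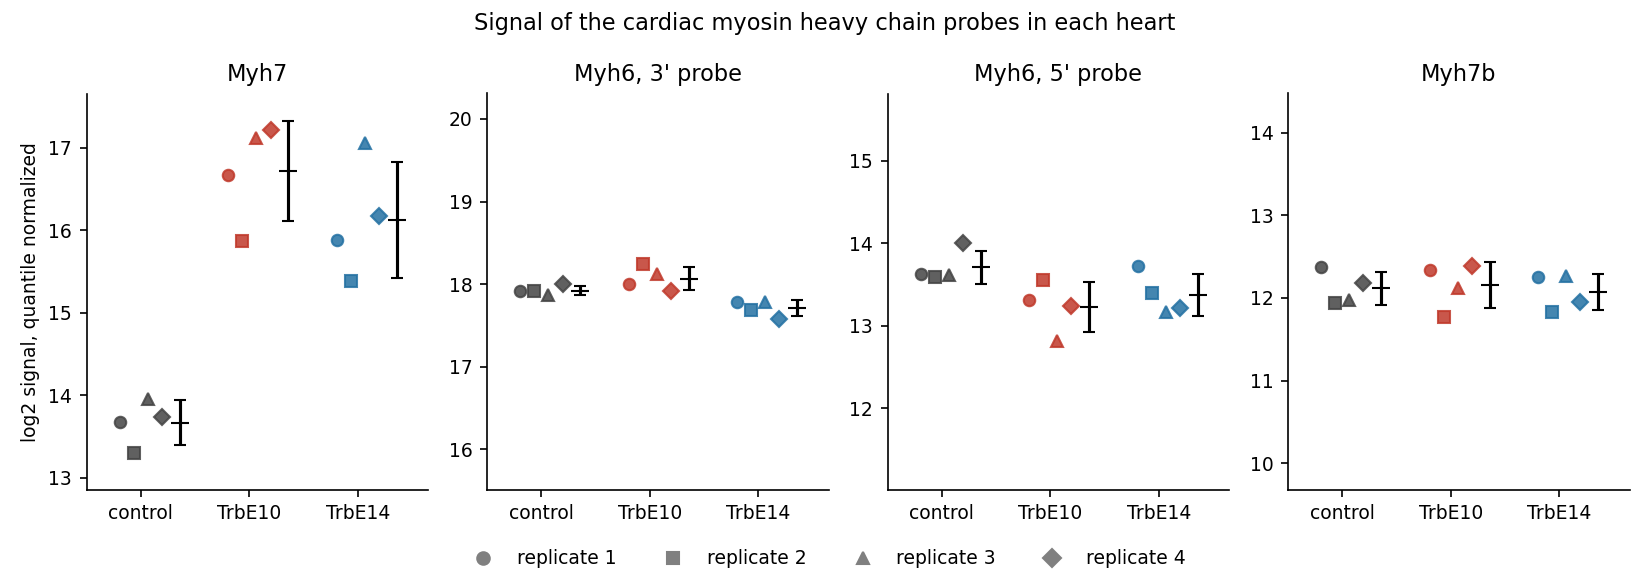
Each panel gives the log2 signal of 1 probe (vertical axis, every panel spans the same number of log2 units) in each heart of the 3 groups, with a symbol per replicate and the mean ± SD (n = 4) beside the points. Myh7 sits between 13.30 and 13.96 in control hearts and between 15.39 and 17.21 in mutant hearts, while the values of both Myh6 probes and of Myh7b spread far less.

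The TrbE10 mean of Myh7 was 0.59 above the TrbE14 mean on the log2 scale (SE 0.36, 95% confidence interval -0.197 to 1.38, adjusted p = 0.93 by limma), and the groups overlapped. No probe was called between the mutants (0 of 24593, or 0%, by limma). An unadjusted limma p under 0.05 was found for 1417 probes, or 5.76%, a share near that threshold. The interval reaches from 0.872-fold to 2.61-fold, and differences within it are not excluded. The hearts of a mutant group differed among themselves more than control hearts did, with an SD of 0.61 in TrbE10 and 0.704 in TrbE14 against 0.274 in control hearts. That difference in spread was not tested. Myh7 ranked between 1072 and 1611 by brightness among the 55681 probes of an array in control hearts, and between 31 and 400 in mutant hearts.

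Myh6, the α heavy chain, was among the brightest probes on every array and did not pass the test in either mutant. The log2 signal of its 3′ probe in control hearts was 17.91, 17.91, 17.87 and 18.00. In TrbE10 hearts it was 18.00, 18.24, 18.12 and 17.91. In TrbE14 hearts it was 17.78, 17.69, 17.78 and 17.58. The TrbE10 hearts overlapped the control hearts, and the TrbE14 hearts all lay just below them. The log2 difference from control was 0.14 (SE 0.0883, 95% confidence interval -0.0492 to 0.339, adjusted p = 0.448 by limma) in TrbE10 and -0.21 (SE 0.0883, -0.406 to -0.0181, adjusted p = 0.332) in TrbE14 hearts. Groups that do not overlap were found for 10.1% of all probes in TrbE10 and 9.43% in TrbE14 against control. Between the mutants the 3′ probe was 0.36 higher in TrbE10 on the log2 scale, with every TrbE10 heart above every TrbE14 heart (3.16% of all probes do not overlap in this comparison), an unadjusted limma p of 0.00188 and an adjusted p of 0.481. This probe ranked between 2 and 13 of 55681 on the arrays, and quantile normalization gives a probe at such a rank the mean signal of that rank, so its values are set by the order of a few very bright probes. With each array scaled to its 75th percentile the differences from control were 0.10 and -0.22 (adjusted p = 0.718 and 0.463).

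The 5′ probe of Myh6, which is dimmer, gave another picture in TrbE10 hearts. Its log2 signal was 13.63, 13.59, 13.61 and 14.01 in control hearts, 13.31, 13.55, 12.82 and 13.24 in TrbE10 hearts and 13.73, 13.39, 13.17 and 13.22 in TrbE14 hearts. Every TrbE10 heart was below every control heart (10.1% of all probes do not overlap in this comparison), and 1 of the TrbE14 hearts was above 3 of the control hearts. The log2 difference from control was -0.48 (SE 0.172, 95% confidence interval -0.858 to -0.101, adjusted p = 0.201 by limma) in TrbE10 and -0.33 (SE 0.172, -0.71 to 0.0459, adjusted p = 0.417) in TrbE14 hearts, and neither passed the test. The probes thus disagreed in direction in TrbE10 hearts, and with their mean in place of the brighter probe the TrbE10 difference turned from 0.14 to -0.17 (adjusted p = 0.482). Across the 12 hearts the probes were hardly related (r = 0.03, and 0.37 after subtraction of the group means). How far the 5′ probe binds other myosin transcripts was not tested.

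Myh7b did not pass the test in either mutant, and its values overlapped throughout. Its log2 signal was 12.38, 11.94, 11.98 and 12.18 in control hearts, 12.34, 11.77, 12.12 and 12.39 in TrbE10 hearts and 12.25, 11.83, 12.26 and 11.95 in TrbE14 hearts. The log2 difference from control was 0.04 (SE 0.161, 95% confidence interval -0.317 to 0.389, adjusted p = 0.94 by limma) in TrbE10 and -0.04 (SE 0.161, -0.396 to 0.31, adjusted p = 0.92) in TrbE14 hearts. The intervals leave room for changes of up to 1.31-fold and down to 0.76-fold. The small sign is not fixed, since with scaling to the 75th percentile the TrbE10 difference was -0.06. As for Myh7, replicate 2 was the lowest heart in each group, and after subtraction of the group means Myh7b and Myh7 had r = 0.64 over the 12 hearts, against 0.24 before it. The hearts share the normalization and, within a slide, the hybridization.

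The balance between the ventricular heavy chains was taken in each heart as the log2 signal of Myh7 minus that of Myh6. Its zero has no meaning, because probes differ in how brightly they report the same amount of RNA, and only its change between hearts can be read. With the 3′ probe of Myh6 the difference was -4.23, -4.61, -3.91 and -4.26 in control hearts. It was -1.33, -2.36, -1.002 and -0.70 in TrbE10 hearts and -1.90, -2.30, -0.72 and -1.41 in TrbE14 hearts. All 8 mutant hearts lay above all 4 control hearts, with gaps of 1.54 and 1.6 between the nearest hearts. The group means moved from -4.25 ± 0.288 (SD, n = 4) in control to -1.35 ± 0.724 in TrbE10 and -1.58 ± 0.681 in TrbE14 hearts, a shift toward Myh7 of 2.91 and 2.67 on the log2 scale, or 7.49-fold and 6.36-fold. The mutant means differed by 0.236, with overlapping hearts and a pooled SD within groups of 0.598. No test is given for this difference, since its movement is mostly that of Myh7 already tested. In TrbE10 hearts the rise of Myh7 was 3.05 and the change of Myh6 0.14, which lessens the shift. In TrbE14 hearts Myh7 had 2.46 and Myh6 -0.21, which adds to it.

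**Figure D2:**
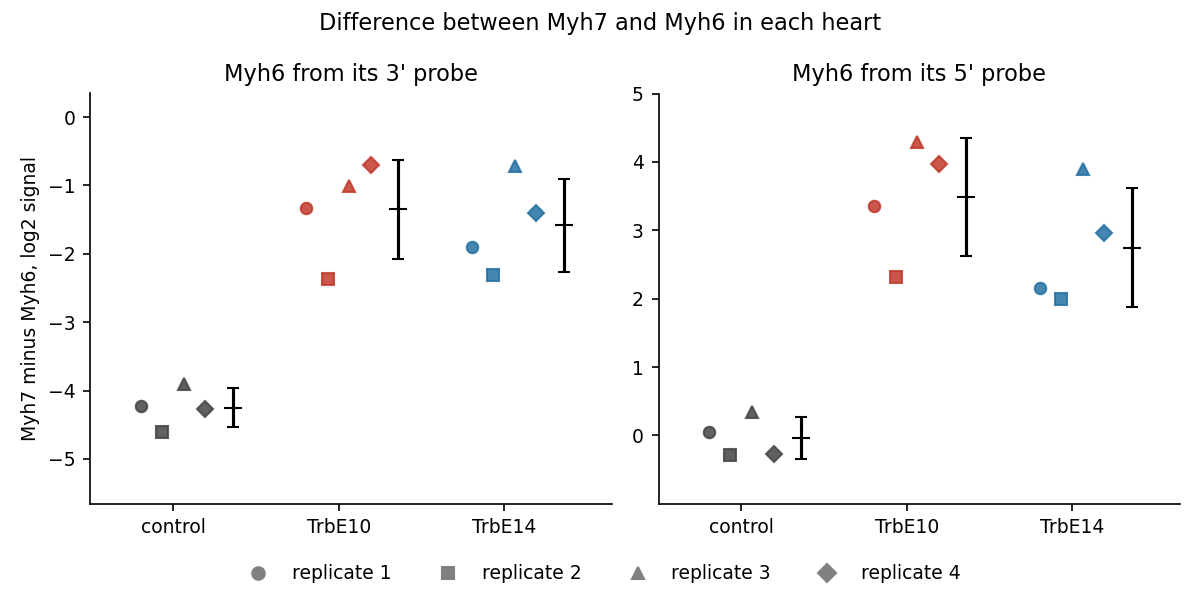
The vertical axis is the log2 signal of Myh7 minus that of Myh6 in each heart, with Myh6 taken from its 3′ probe (left) or its 5′ probe (right); symbols mark replicates, and bars the mean ± SD (n = 4). With either probe all mutant hearts lie above all control hearts, by 2.91 and 2.67 on average on the left and by 3.53 and 2.79 on the right.

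With the 5′ probe of Myh6, a choice made after seeing the data, the difference was 0.05, -0.29, 0.35 and -0.28 in control hearts. It was 3.36, 2.32, 4.29 and 3.98 in TrbE10 hearts and 2.15, 1.99, 3.89 and 2.96 in TrbE14 hearts. The shift was then 3.53 in TrbE10 and 2.79 in TrbE14 hearts, again without overlap with control. The 5′ probe itself added to it, with differences from control of -0.48 and -0.33, neither of which passed the test. The order of the hearts within a group was set largely by Myh7, replicate 2 being lowest in each group with either probe.

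Mhrt, the antisense RNA of the locus, was named through its RefSeq accession, since the array calls it D830015G02Rik, and its probe maps to the plus strand at chr14:55592952-55593011 (mm9). Its log2 signal was 13.74, 13.79, 13.99 and 14.10 in control hearts, 13.25, 13.44, 13.22 and 13.23 in TrbE10 hearts and 13.55, 13.14, 13.16 and 13.32 in TrbE14 hearts. Every mutant heart was below every control heart (10.1% and 9.43% of all probes do not overlap control in TrbE10 and TrbE14). Mhrt fell in both mutants, by 0.62 on the log2 scale for TrbE10 (SE 0.116, adjusted p = 0.0243 by limma) and by 0.61 for TrbE14 hearts (SE 0.116, adjusted p = 0.045). These calls were near the threshold. They were lost without a filter on dim probes (adjusted p = 0.0552 and 0.085) and with the replicate number as a block (0.07 and 0.11), and the TrbE14 call also in a fit of 2 groups only (0.0998) and with Y-linked signal as a covariate (0.0881). The TrbE10 call was lost when any of control replicates 3 and 4 or TrbE10 replicates 1, 3 and 4 was left out (adjusted p between 0.066 and 0.0825), while the TrbE14 call was lost without any 1 array other than TrbE14 replicate 1 and TrbE10 replicate 2 (adjusted p up to 0.127). The log2 difference stayed between -0.71 and -0.56 in TrbE10 and between -0.70 and -0.54 in TrbE14 hearts under all alternatives tried. Myh7 and Mhrt moved in opposite directions between the groups, and Myh7 minus Mhrt rose by 3.67 in TrbE10 and 3.07 in TrbE14 hearts. Over the 12 hearts Mhrt and Myh7 had r = -0.87, which was -0.23 after subtraction of the group means, whereas Mhrt and the 5′ probe of Myh6 had r = 0.81 and still 0.72 after it.

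**Figure D3:**
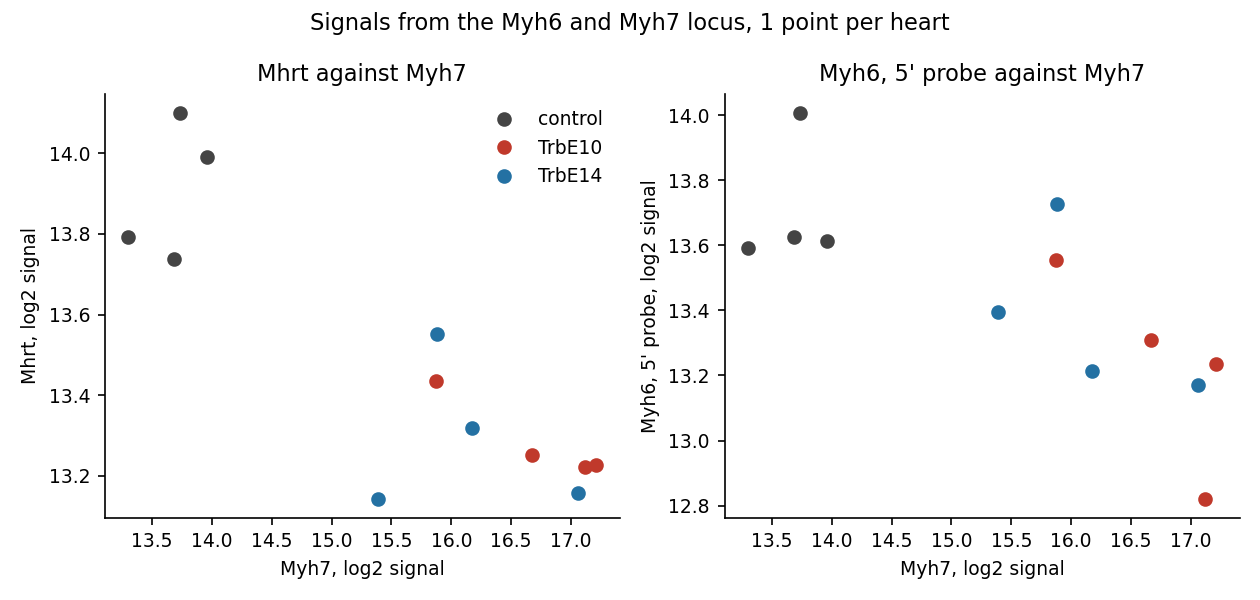
Each point is 1 heart, with the log2 signal of Myh7 on the horizontal axis and that of Mhrt (left) or of the 5′ probe of Myh6 (right) on the vertical axis, coloured by group. Control hearts stand apart at the upper left in the Mhrt panel (Mhrt 13.74 to 14.10), and mutant hearts lie at high Myh7 with Mhrt between 13.14 and 13.55.

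Genes related to the heavy chains were read from lists drawn up from general knowledge, with the brightest probe of each gene. Over all 18021 genes 1.93% were called in TrbE10 and 0.66% in TrbE14 hearts, and the median log2 difference was -0.0249 and -0.0308. None of the other myosin heavy chains was called, with 5 of 10 passing the filter and 0 called in either mutant at medians of -0.06 and -0.04. The skeletal muscle chains Myh1, Myh2, Myh3, Myh4 and Myh13 did not pass it. Myh8, a perinatal skeletal heavy chain, had log2 differences of -0.36 and -0.24 (adjusted p = 0.298 and 0.52 by limma), but 2 of its 4 probes were not above background on any array. Myh9, a non-muscle heavy chain, had 0.13 and 0.06.

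Of the thick filament partners of myosin (light chains, myosin binding proteins, titin and M-band proteins), 15 of 17 passed the filter and 0 were called in either mutant, with medians of -0.13 and -0.0006. The largest difference in TrbE10 was that of Mybphl, a myosin binding protein of atrial muscle, at 1.84 (SE 0.604, adjusted p = 0.161 by limma) and 0.67 in TrbE14 hearts, followed by Mybpc2, the fast skeletal myosin binding protein C, at 0.49 and 0.38. The brightest probes of the ventricular light chains Myl2 and Myl3 differed from control by at most 0.06 in either mutant, but they are among the brightest probes of the array, where quantile normalization leaves little room for change (Myl3 had an SD of 0 in TrbE10 hearts), and a dimmer Myl2 probe had -0.50 and -0.60 (adjusted p = 0.703 and 0.639). Of 10 genes of myosin folding and turnover 0 were called, with medians of -0.03 and -0.07. Trim55, a ubiquitin ligase of the sarcomere, had -0.39 and -0.48, and Unc45b, the chaperone that folds the myosin head, had -0.36 and -0.22.

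Among regulators of the heavy chain genes, 30 of 33 passed the filter, of which 1 rose and 1 fell in TrbE10 and 1 rose in TrbE14 hearts. The median log2 difference was -0.0194 in TrbE10 and 0.0185 in TrbE14 hearts. Vgll2, a cofactor of the TEAD factors that bind MCAT elements, rose in both mutants, by 4.22 on the log2 scale for TrbE10 (SE 0.22, adjusted p = 5.26e-06 by limma) and by 2.93 for TrbE14 hearts (SE 0.22, adjusted p = 0.000162). Its log2 signal lay between 7.83 and 8.45 in control, 11.85 and 12.85 in TrbE10, and 10.70 and 11.20 in TrbE14 hearts. The 3 groups did not overlap, and the difference of 1.29 between the mutants was not called (adjusted p = 0.15). Of all probes, 10.1% (TrbE10) and 9.43% (TrbE14) do not overlap control, and 3.16% do not overlap between the mutants. The TEAD factors themselves had log2 differences of 0.03 and 0.03 for Tead1, 0.01 and 0.02 for Tead2 and 0.05 and 0.08 for Tead3, and Tead4 did not pass the filter. The gene that fell in TrbE10 hearts was Nkx2-5 itself, whose call was not stable, as given above. Prox1, a homeobox regulator of muscle fibre type, had -0.54 and -0.39 (adjusted p = 0.282 and 0.481). The probes of Tbx20, a cardiac T-box factor, differed in their calls. The brightest, which is the one counted here, had 0.50 and 0.37 (adjusted p = 0.121 and 0.311). The second had 1.23 and 1.27 (adjusted p = 0.0237 and 0.0341), called in both mutants, and the dimmest, above background on 8 of 12 arrays, had 2.02 and 1.80 (adjusted p = 0.0237 and 0.064), called in TrbE10. With the mean over all probes of a gene 2 regulators were called in TrbE14 hearts. Smarca4, which encodes the Brg1 that Mhrt binds, had -0.02 and -0.02.

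Of the thyroid hormone axis only single genes are described, without a count over the list. Dio2, the deiodinase that makes the active hormone, had 1.26 and 1.09 (SE 0.386, adjusted p = 0.134 and 0.264), and Rxrg, a retinoid receptor that pairs with thyroid receptors, had -0.47 and -0.30 (adjusted p = 0.16 and 0.424). The receptors Thra and Thrb had -0.23 and -0.29 in TrbE10 and -0.04 and -0.16 in TrbE14 hearts, and neither was called.

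Of 12 genes that respond to thyroid hormone in heart or other tissues, 12 passed the filter, of which 1 fell in TrbE10 and 0 changed in TrbE14 hearts, with medians of -0.18 and -0.04. Kcnd2, which encodes the potassium channel Kv4.2 of the transient outward current, fell by 0.56 in TrbE10 hearts (SE 0.11, adjusted p = 0.0318 by limma) and had -0.14 in TrbE14 hearts (adjusted p = 0.578), and the mutants did not differ beyond the threshold (adjusted p = 0.523). This call was lost under 9 of 21 alternatives, among them without control replicate 1, 2, 3 or 4 or TrbE10 replicate 1 or 3 (adjusted p between 0.0523 and 0.0924). Ucp3, a mitochondrial uncoupling protein, had 0.51 and 0.47, and Slc2a4, the insulin-dependent glucose transporter, had -0.38 and -0.24 (adjusted p = 0.104 and 0.368).

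Of 11 genes that commonly accompany Myh7 in the fetal or stressed ventricle, 9 passed the filter, 1 rose in each mutant and none fell. The medians were 0.59 and 0.42, against -0.0249 and -0.0308 over all genes, and 8 of 9 had a positive log2 difference in each mutant. The TrbE14 median was 0.25 without TrbE14 replicate 1 and 0.68 with Y-linked signal as a covariate. Ankrd1, a stress-induced ankyrin repeat protein of the sarcomere and nucleus, rose by 0.99 in TrbE10 (SE 0.132, adjusted p = 0.00396 by limma) and by 0.87 in TrbE14 hearts (SE 0.132, adjusted p = 0.0135), and the TrbE14 call was lost without control replicate 3 (adjusted p = 0.0506). Nppa, the atrial natriuretic peptide, had 2.07 and 1.65 (SE 0.543, adjusted p = 0.086 and 0.24), and Ctgf, a matricellular growth factor, had 1.12 and 1.37 (SE 0.614, adjusted p = 0.397 and 0.361). The skeletal α-actin Acta1, another fetal isoform, had 0.59 and 0.65 (adjusted p = 0.571 and 0.54), with control hearts spread from 11.99 to 13.79. The gene with a negative difference was Tnnt1 in TrbE10 and Nppb, another natriuretic peptide, in TrbE14 hearts. Tnnt1 had -0.13 and 0.11 (adjusted p = 0.836 and 0.863 by limma), and Nppb had 0.52 and -0.19 (adjusted p = 0.557 and 0.847).

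**Figure D4:**
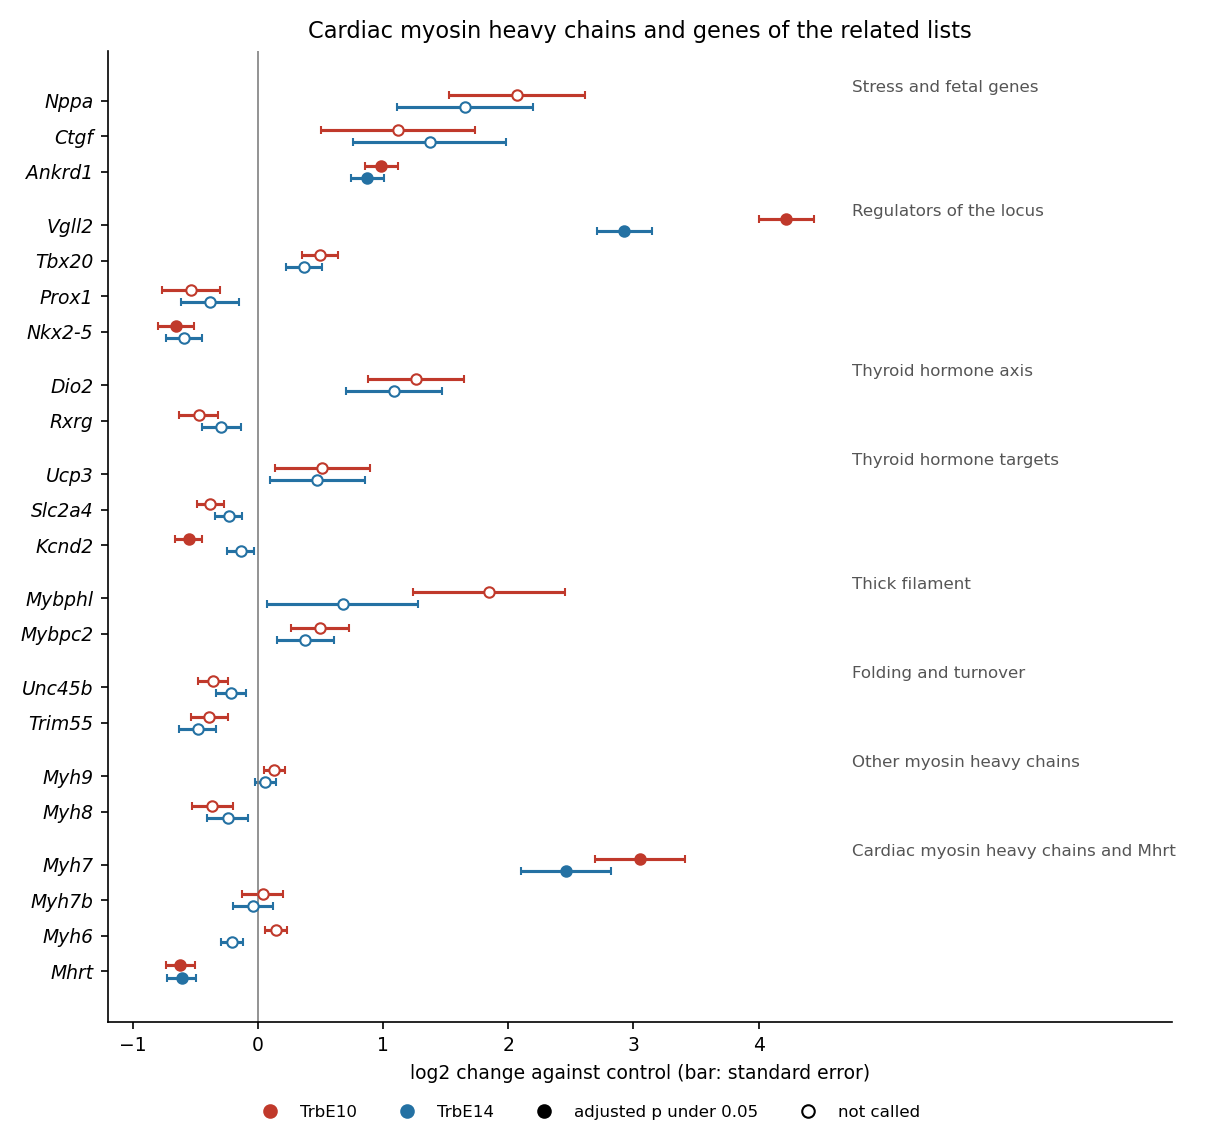
The horizontal axis is the log2 difference from control, with its standard error as a bar, in TrbE10 (red) and TrbE14 (blue) hearts. Drawn are the myosin heavy chains (Myh6 from its 3′ probe), Mhrt and, from each list, genes called in either mutant and the 2 largest other TrbE10 differences. Other genes named in the text are not drawn, among them Tnnt1 and Nppb, each with a negative difference in 1 mutant. Filled points have an adjusted p under 0.05 by limma. Myh7 (3.05 and 2.46) and Vgll2 (4.22 and 2.93) stand far to the right, Ankrd1 near 1, and Mhrt near -0.6, while the other myosin heavy chains and thick filament genes are open points.

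The genes whose log2 signal followed a member most closely over the 12 hearts were taken from 13803 genes, as a description with no test, and the 3 groups, the slides and the normalization are shared by all points. For Myh7 they were Bin1 (r = 0.965, and 0.722 after subtraction of the group means), which encodes amphiphysin 2 of the T-tubule membrane, Gm6548 (0.965 and 0.694), Msr1 (0.964 and 0.679), a macrophage scavenger receptor, Hcst (0.964 and 0.886), a signalling adaptor of immune cells, and Rps6ka1 (0.960 and 0.644), a ribosomal S6 kinase. The most opposite were Coq10a (r = -0.976, and -0.855 after subtraction), a coenzyme Q binding protein of mitochondria, Fam118b (-0.957 and -0.849) and B830008H07Rik (-0.956 and -0.782). The mean log2 signal of Coq10a was 13.04 in control, 12.51 in TrbE10 and 12.67 in TrbE14 hearts.

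For the other members r over the 12 hearts was lower. After subtraction of the group means the genes most like Myh7b had 0.836 to 0.941, against 0.644 to 0.886 for those most like Myh7. The 3′ probe of Myh6 was followed by Erh (r = 0.91, and 0.758 after subtraction of the group means), Kctd1 (0.87 and 0.749), Erdr1 (0.867 and 0.687), LOC674321 (0.856 and 0.416) and Parp6 (0.854 and 0.676), and opposed by Gm7303 (-0.897 and -0.87), 4932438A13Rik (-0.857 and -0.895) and Wbp2 (-0.845 and -0.763). Myh7b was followed by Clasrp (r = 0.907, and 0.909 after subtraction), Celf4 (0.892 and 0.937), Epha2 (0.855 and 0.865), Hsp90b1 (0.838 and 0.836) and Mapre1 (0.811 and 0.941), and opposed by Gm15998 (-0.829 and -0.903), Lcmt2 (-0.821 and -0.899) and Grpel1 (-0.805 and -0.837). Myh7 and the 3′ probe of Myh6 were themselves unrelated over the hearts (r = 0.01, and -0.27 after subtraction of the group means).

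The tissue was read from marker genes of the cells it could hold, and fewer cells of a type and less RNA per cell cannot be told apart in such samples. All 10 ventricular cardiomyocyte markers were above background and 0 were called, and the log2 of their summed signal was 19.85 to 19.95 in control, 19.88 to 20.00 in TrbE10 and 19.89 to 19.97 in TrbE14 hearts. Most of this sum comes from Myl3, Actc1 and Myl2, very bright probes that quantile normalization holds nearly constant, so its evenness says little about the share of cardiomyocytes. The summed signal of 5 slow skeletal muscle markers, cells that also use Myh7, was 15.59 to 15.76 in control, 15.58 to 15.74 in TrbE10 and 15.60 to 15.76 in TrbE14 hearts. Most of it comes from Myoz2 (mean log2 signal 15.16), and Tnni1 did not pass the filter. The evenness of this sum therefore says little about slow muscle. Of 10 fast skeletal markers Actn3, Myh1, Myh2, Myh4 and Mylpf were above background on no array. The other 5 passed the filter, of which Tnni2, the fast troponin I, fell in TrbE10 hearts by 1.38 (log2, adjusted p = 0.0193 by limma), while Myl1, a fast light chain, had 1.25 and 0.83 (adjusted p = 0.233 and 0.466). The fast skeletal markers summed to 12.78 to 14.01 in control, 13.62 to 14.90 in TrbE10 and 13.60 to 14.75 in TrbE14 hearts. The 6 atrial markers summed to 13.55 to 16.06 in control, 15.34 to 17.28 in TrbE10 and 16.24 to 16.55 in TrbE14 hearts, so that 1 of these groups, TrbE14, lay above all control hearts. Of them 2 rose in TrbE10 (Bmp10 by 4.27 and Sln by 3.80) and 1 in TrbE14 hearts (Bmp10 by 4.45). In TrbE14 hearts Sln had 3.33 (adjusted p = 0.0511 by limma). Bmp10 was above background on 8 of 12 arrays and passed the filter through the mutant hearts. Its control hearts lay at 2.35 to 2.37, near the floor, so the sizes of its rises are measured against background. The atrial light chains Myl4 and Myl7 had -0.09 and -0.12 in TrbE10 and 0.09 and -0.0006 in TrbE14 hearts. Their SEs were 0.708 and 0.843, and Myl7 ran from 8.68 to 12.14 in control hearts. Changes of these light chains in either direction are therefore not excluded. The 5 macrophage markers summed to 12.74 to 13.01 in control, 13.68 to 13.86 in TrbE10 and 13.47 to 13.59 in TrbE14 hearts, with 2 and 1 of 5 called higher. The 5 fibroblast markers summed to 15.80 to 15.93, 16.15 to 16.41 and 16.28 to 16.49, with 1 of 5 called higher in each mutant. Over all genes 1.93% were called in TrbE10 and 0.66% in TrbE14 hearts, in either direction. Of all single probes, 10.1% (TrbE10) and 9.43% (TrbE14) do not overlap control. By mean signal Myl1 led the fast skeletal sum, Nppa the atrial, Csf1r the macrophage and Dcn the fibroblast sum. Each of these sums thus follows mainly a single gene, and Nppa was also counted among the stress genes above. The part of the slow skeletal, fast skeletal, atrial, macrophage and fibroblast signals in the Myh7 result was not tested.

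**Figure D5:**
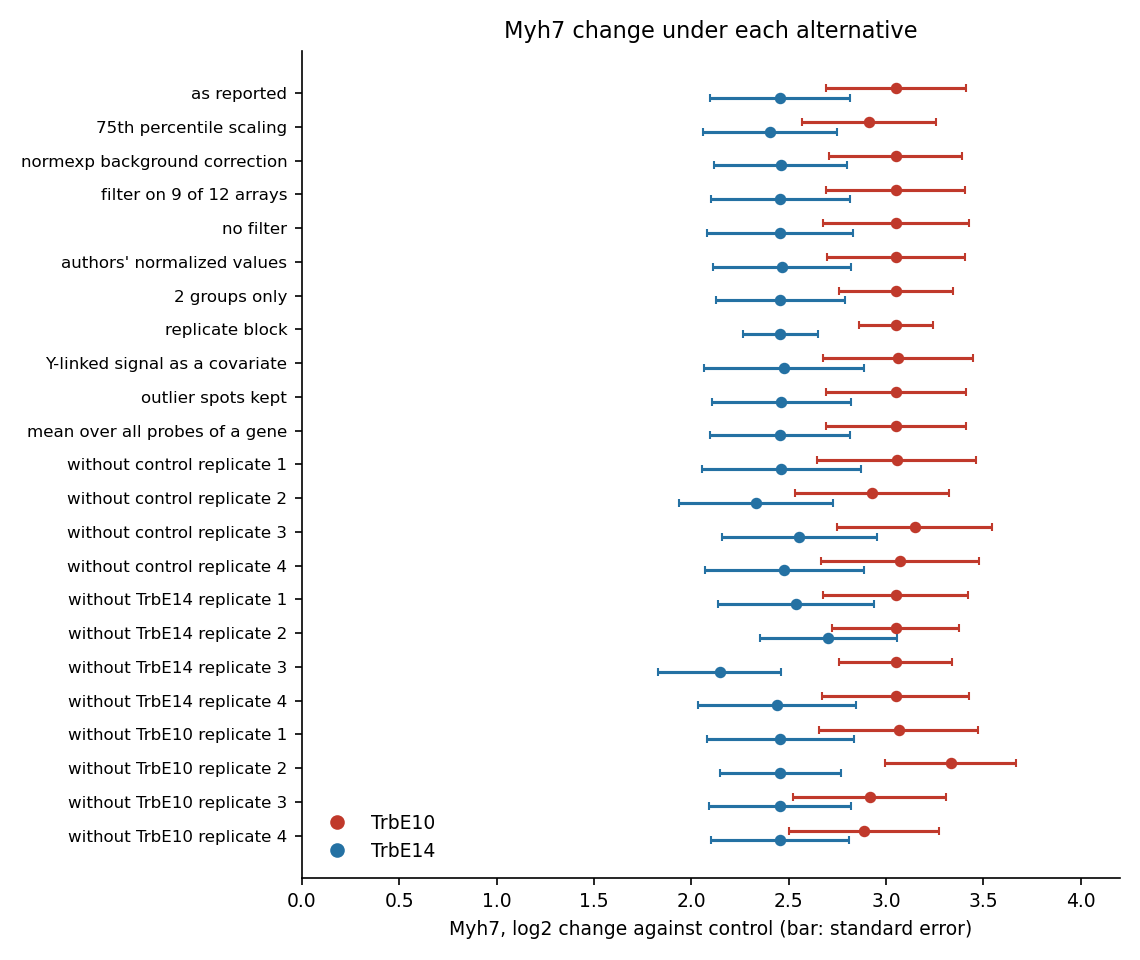
The log2 difference of Myh7 from control (horizontal axis, bar: standard error) is given for the values as reported and for each alternative on the vertical axis, TrbE10 in red and TrbE14 in blue. All points lie between 2.15 and 3.33 and have an adjusted p under 0.05, the lowest TrbE14 value being that without TrbE14 replicate 3.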

How the data were processed

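RNA of 12 left ventricles was hybridized to one-colour arrays, 4 per group. Per the labels, Agilent Feature Extraction 10.5 read the arrays. The authors deposited each scanner file, whose processed intensity had been corrected for background but not scaled between arrays. A second deposited file holds their own quantile-normalized log2 values for 22114 rows and served as an alternative. Here the manufacturer's controls and spots marked as outliers were left out, and the log2 intensities were quantile normalized and averaged per probe (limma 3.58.1 under R 4.3.3). Probes entered the tests if 3 or more arrays of 1 group had them well above background. Precision is limited by the 4 arrays of each group.

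A linear model with a mean per group (9 residual and 2.19 prior degrees of freedom) was fitted with limma, which gave every adjusted p, by the Benjamini-Hochberg method within a comparison. The fit was tested on simulated data. Exact permutation tests used the 70 label orders of 8 arrays. A gene was read from its brightest filtered probe. Members and lists were chosen with earlier results of these data known. By name the text gives every member and probe, list genes called in either mutant (1 gene of the thyroid list is not reported here and is left out of all list counts), the 2 largest other TrbE10 differences of each list, and the 5 most alike and 3 most opposite genes per member. Tead1 to Tead4, Smarca4, Thra, Thrb, Acta1, Tnnt1, Nppb, the light chains and the marker genes were named after their values were seen. Sequences came from the scanner files and RefSeq tables, read with Python 3.11.15 and pandas 2.3.3, and figures were drawn with matplotlib 3.10.9. The alternatives were scaling by the 75th percentile, normexp (offset 50), a filter blind to the groups (9 of 12 arrays) or none, the authors' log2 values, fits without the third group, a replicate block, Y-linked signal as a covariate, outlier spots kept, the mean over a gene's probes and each array left out.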

Additional observations from a re-analysis of the deposited data

Results flagged for a closer look

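In 3 of 21 groups of 4 hearts that were examined, 1 heart stood apart from the others by Dixon's criterion, which chance meets in about 1 of 20 groups. In TrbE10 hearts the Mhrt value of replicate 2 (13.44) was separated from the other hearts (13.22 to 13.25) by a share of 0.85 of the group's range. In the same group the Nkx2-5 value of replicate 2 (11.67, against 11.21 to 11.27) was separated by a share of 0.861. In control hearts the 5′ probe of Myh6 was higher in replicate 4 (14.01, against 13.59 to 13.63), by a share of 0.916. Without control replicate 4 the log2 differences of that probe from control were -0.38 in TrbE10 and -0.23 in TrbE14 hearts (adjusted p = 0.386 and 0.626 by limma), and neither was called with or without it.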

How the results depend on the processing

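Myh7 kept its direction and its call in both mutants under all 22 alternatives (adjusted p by limma 0.000725 to 0.0105 in TrbE10 and 0.00288 to 0.0405 in TrbE14). In some of them its difference cannot move and only the adjusted p can. These include the changed filters, the fit of 2 groups, the replicate block and the mean over probes, as Myh7 has 1 probe. With 75th percentile scaling the Myh7b difference in TrbE10 was -0.06125 and 1 probe was called between the mutants. With normexp 240 probes were called in TrbE14, and Mhrt between the mutants was 0.02578. Without a filter 197 probes were called in TrbE10 and 2 between the mutants, 2 list genes were called in TrbE10, and Nkx2-5 in TrbE10 (-0.656) had an adjusted p of 0.105. With 2 groups only 263 probes and 3 list genes were called in TrbE10, and Nkx2-5 (-0.656) had an adjusted p of 0.0676. With Y-linked signal as a covariate 8 list genes were called in TrbE10. With the mean over all probes of a gene Myh6 in TrbE10 was -0.1673. With the second Myh6 probe, added after seeing the data, Myh7 minus Myh6 in TrbE10 moved by 3.53. The cause was not tested.

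With 1 array left out, 159 to 709 probes were called in TrbE10, the fewest with its replicate 3 and the most with its replicate 2 missing, 83 to 190 in TrbE14 (with control replicate 3 and TrbE10 replicate 2 missing) and 0 to 1 between the mutants. The list genes reported here that were called were 2 to 9 in TrbE10 and 1 to 3 in TrbE14, against 5 and 3 with all arrays. Nkx2-5 lay between -0.7647 and -0.5802 in TrbE10 and between -0.1724 and 0.008895 when the mutants were compared. Myh7b lay between -0.0411 and 0.1649 in TrbE10, -0.1058 and 0.04343 in TrbE14, and -0.002036 and 0.2079 when the mutants were compared, where Mhrt ranged from -0.06034 to 0.07666 and Myh7 minus Myh6 from -0.003393 to 0.5752.

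The replicate numbers are not stated to pair the mice, and same-numbered arrays of different groups correlated between -0.242 and 0.476 (3 of 12 pairs above 0.1). For 6 of 12 arrays the best partner in another group had the same number. With the replicate number as a block 316 and 146 probes were called in TrbE10 and TrbE14 and 1 between the mutants, and 3 list genes were called in TrbE10. The block is balanced over the groups, so the Myh7 differences of 3.05 and 2.46 could not move, and only the adjusted p could. Myh7 kept its calls (adjusted p = 0.000725 and 0.00288 by limma). The calls of Mhrt (adjusted p = 0.07 and 0.11) and Kcnd2 (0.0661) were lost. A slide term could not be fitted beside the groups, since 1 slide holds the TrbE10 arrays only. Low signal over background limits no member, as all 4 probes were well above background on all 12 arrays.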
